A study of Mus musculus with 11 samples.

Results

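The genes described here encode the machinery of mitosis: the kinase and cyclins that start it, the spindle and its motors, the kinetochores that hold chromosomes to the spindle, the checkpoint that waits for every chromosome, and the enzymes that then separate the chromosomes and the daughter cells. A list of 55 mouse genes was used. A gene entered by having a probe set with a single gene symbol, and it was represented by the probe set of that symbol with the highest mean over all arrays. That rule gave 54 genes of the 18193 genes measured, and all 54 passed the filter on low values, as did 14795 genes in all. Ccnb1, which encodes the partner of the mitotic kinase Cdk1, was not analysed here.

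The cells were CD8+ T cells of pmel-1 transgenic mice, which carry a T cell receptor for a peptide of the melanocyte protein gp100. Cells enriched as naive (CD44-) or as central memory (CD44+) were activated on plate-bound CD3/CD28, grown for a week, given allogeneic feeders pulsed with the hgp100(25-33) peptide, and cultured for 2 weeks in all with 10 cetus units of IL2. All 4 groups share this history. They differ in origin (naive-derived or memory-derived) and in whether the cultures received a final CD3/CD28 stimulation of 4 h before RNA was taken (stimulated) or none (unstimulated). There were 3 arrays each of memory-derived unstimulated, memory-derived stimulated and naive-derived stimulated cells and 2 of naive-derived unstimulated cells, labelled as biological replicates of 3 independent experiments. The labels do not say whether a culture came from 1 mouse or a pool, and origin rests on the CD44 enrichment alone.

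Most mitosis genes are periodic. Their mRNA is scarce in resting cells and early in the cycle and accumulates before and during mitosis. In a culture the level therefore depends in part on how many cells are about to divide. In resting cells a repressor complex that holds Rbl1 or Rbl2, E2f4 and the Lin proteins keeps many of these promoters silent, and in dividing cells Mybl2 and Foxm1 take over and switch them on. Many of the promoters carry CCAAT boxes, which bind the factor NF-Y, near an element called the cell cycle homology region, whose usual letters are TTTGAA or TTCGAA. CD8+ T cells divide fast after activation and slow down as antigen and cytokine run out.

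Promoter sequences show how far the list shares these elements. Of the 54 genes, 45 had at least 1 promoter window in the RefSeq table of GRCm38.p6, with 50 windows of 300 bases (250 before and 50 after the annotated start). Searched on both strands, CCAAT stood in 74% of these windows and in 37.4% of the 32851 windows of all genes. TTTGAA stood in 68%, against 17.9% of all windows, and TTCGAA in 8%, against 1.56%. A window with CCAAT and with either of the other pair of motifs made up 62% of the list's windows and 7.52% of all windows. The E2F-type letters GGCGGGA were in 26% against 11.3%, and TTGGCGC in 12% against 2.45%. With only the 250 bases before the start searched, CCAAT with either of the other pair was in 32% against 6.02%. These are matches of letters, not sites of binding. The 7 stretches below are the 120 bases before the annotated start, 5′ to 3′ on the gene's strand, with matches in capitals (ATTGG and TTCAAA are CCAAT and TTTGAA read from the other strand). The first 5 carry CCAAT with TTTGAA, Birc5 shows an E2F-type match alone, and Nusap1 shows none; they were picked after the matches were known.
Cdk1, chr10:69352913-69353032, minus strand: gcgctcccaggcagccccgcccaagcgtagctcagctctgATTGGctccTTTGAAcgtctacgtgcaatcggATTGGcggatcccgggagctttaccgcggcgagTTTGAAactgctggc
Cdc20, chr4:118437344-118437463, minus strand: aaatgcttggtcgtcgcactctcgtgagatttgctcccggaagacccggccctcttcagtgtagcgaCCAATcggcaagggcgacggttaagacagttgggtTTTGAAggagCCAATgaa
Espl1, chr15:102296173-102296292, plus strand: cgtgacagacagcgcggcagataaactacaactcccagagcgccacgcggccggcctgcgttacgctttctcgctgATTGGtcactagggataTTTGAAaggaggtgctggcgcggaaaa
Kif11, chr19:37376262-37376381, plus strand: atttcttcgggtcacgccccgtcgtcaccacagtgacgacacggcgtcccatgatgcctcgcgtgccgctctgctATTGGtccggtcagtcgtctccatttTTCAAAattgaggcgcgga
Top2a, chr11:99024190-99024309, minus strand: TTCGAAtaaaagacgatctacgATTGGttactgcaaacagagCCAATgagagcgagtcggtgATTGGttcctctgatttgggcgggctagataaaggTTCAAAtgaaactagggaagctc
Birc5, chr11:117849117-117849236, plus strand: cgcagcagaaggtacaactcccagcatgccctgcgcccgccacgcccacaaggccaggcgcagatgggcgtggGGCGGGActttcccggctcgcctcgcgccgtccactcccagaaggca
Nusap1, chr2:119618178-119618297, plus strand: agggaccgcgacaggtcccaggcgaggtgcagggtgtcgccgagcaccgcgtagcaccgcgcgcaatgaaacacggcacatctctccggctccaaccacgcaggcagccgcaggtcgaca

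Across the arrays the genes moved together, and 1 array stood apart. In memory-derived unstimulated cells the median gene of the list lay above its own mean over the 11 arrays by 0.56 on array 1, 0.30 on array 2 and 1.07 on array 3 (log2). The same median was -0.25, -0.45 and -0.43 on the memory-derived stimulated arrays, -0.10 and 0.11 on the naive-derived unstimulated arrays, and -0.29, 0.05 and -0.50 on the naive-derived stimulated arrays. Memory-derived unstimulated array 3 held the highest value of 51 of the 54 genes, where it held the highest of 23.4% of all genes tested. On it every one of the 54 lay above the mean of arrays 1 and 2 of its group (52.3% of all genes did), by a median of 0.65 and by 0.11 (Cdc25c) to 1.42 (Kif22). The list's counts on stimulation of memory-derived cells and by origin in unstimulated cells are therefore also given without it. Other results that rest on it, such as those of single genes, are given without it only in part. The levels are log2 values of quantile normalized arrays, converted from deposited log10 values whose base was inferred here, so they compare arrays for 1 gene and not genes with each other.

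**Figure D1:**
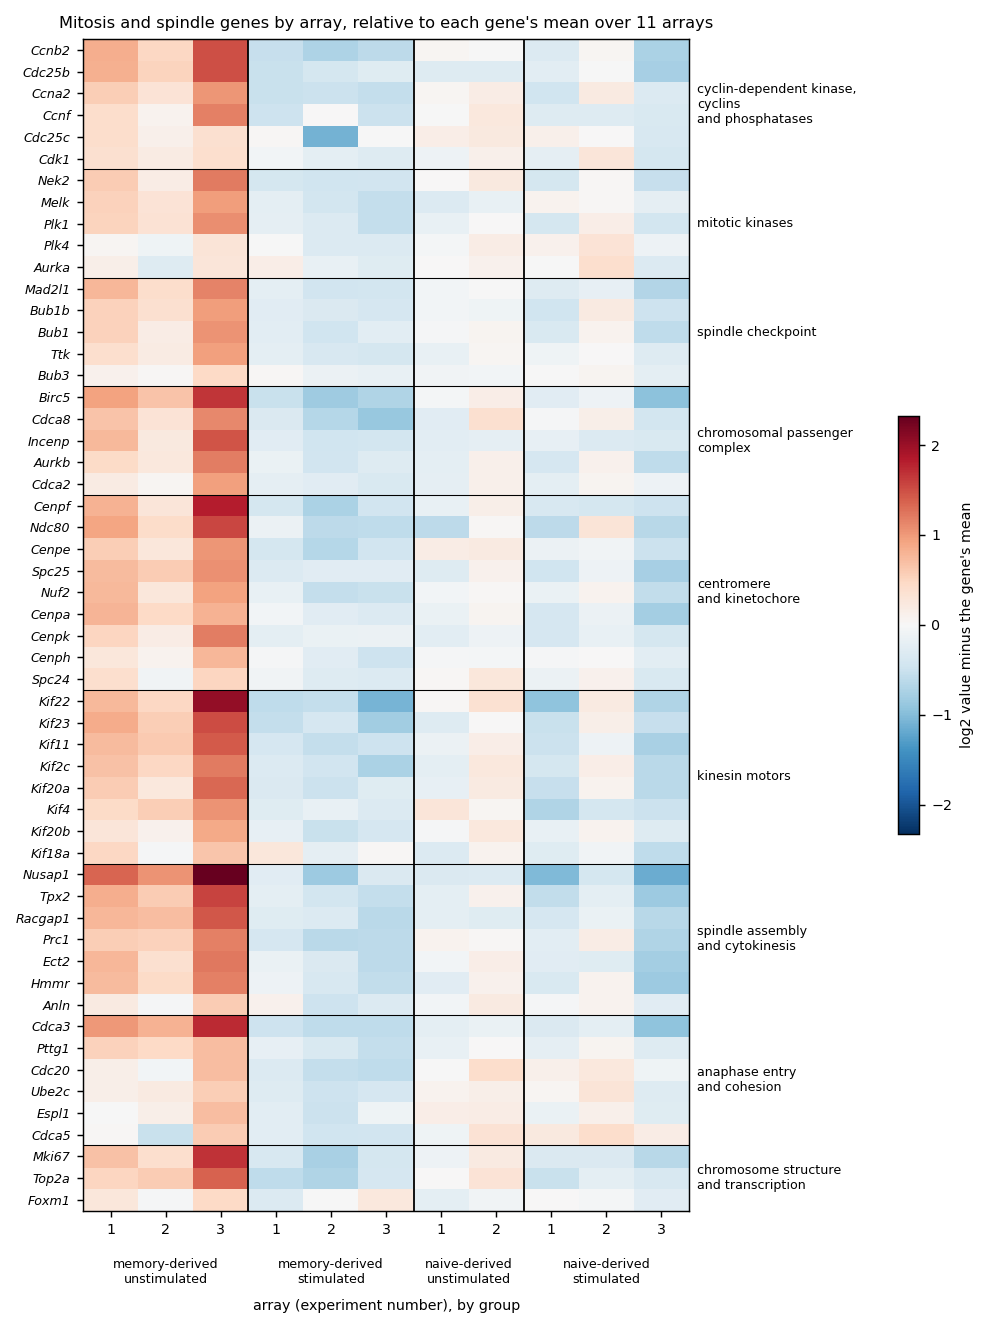
Each row is 1 of 54 mitosis and spindle genes, grouped by role, and each column is 1 of the 11 arrays, grouped by origin and stimulation. Colour gives the log2 value minus the gene's mean over the arrays (red above, blue below), and memory-derived unstimulated array 3 is the darkest red column, holding the highest value of 51 genes.

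Memory-derived unstimulated cells had the highest group mean for 51 of the 54 genes (36.7% of all genes), and for 49 when array 3 was left out (36.4% of all genes). Memory-derived stimulated cells had the lowest group mean for 43 (18.7% of all genes) and naive-derived stimulated cells for 10 (26.6% of all genes). The full order memory-derived unstimulated, naive-derived unstimulated, naive-derived stimulated, memory-derived stimulated held for 38 genes and for 6.09% of all genes. Naive-derived groups thus lay between the 2 memory-derived groups for most of the list. The median SD between arrays of a group was 0.40 in memory-derived unstimulated cells, 0.15 in memory-derived stimulated cells, 0.15 in naive-derived unstimulated cells and 0.29 in naive-derived stimulated cells, so neighbours in the middle of that order often overlap.

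Signs of RNA quality and summed markers of other cells differed between some groups. The 3' minus 5' difference of the actin control (log10), which grows as RNA is broken or copied incompletely, was lowest in the memory-derived unstimulated group (0.263 to 0.351). It ran from 0.431 to 0.520 with stimulation of these cells, from 0.462 to 0.478 in unstimulated naive-derived cells and from 0.581 to 0.782 in stimulated ones, so the memory-derived groups did not overlap and neither did the naive-derived groups. The lowest value of all was on memory-derived unstimulated array 3, where most of the list was highest. For Gapdh the same difference was -0.548 to -0.388 over all arrays. All 7 markers of CD8 T cells lay above the filter on every array. Summed on the linear scale they reached 5151 to 6899 in unstimulated and 3614 to 3831 in stimulated memory-derived cells, and 5580 to 5959 in unstimulated and 4261 to 4594 in stimulated naive-derived cells. The 5 dendritic cell markers, which include Itgax, a gene that activated CD8 T cells also express, summed to 81.8 to 114 in unstimulated and 62.9 to 73.5 in stimulated memory-derived cells, and to 35.8 to 48.8 and 35.9 to 51.8 in the same states of naive-derived cells. B cell markers summed to 10.3 to 12.2 in memory-derived and 13.1 to 13.5 in naive-derived unstimulated cells, and to 10.5 to 11.3 and 11.2 to 12.1 in stimulated cells of these origins. Markers of red cells and stroma summed to 22.4 to 26.5 and 18.1 to 18.4 in unstimulated and to 20.4 to 22.5 and 18.9 to 20.2 in stimulated cells, in the same order of origins. Macrophage markers summed to 22.8 to 23.8 in memory-derived and 19.2 to 20.7 in naive-derived stimulated cells, and to 19.1 to 24.5 over all arrays. Those of CD4, regulatory, NK and gamma-delta T cells summed to 6.55 to 8.11. Ms4a1, Cd79a, Cd4, Siglech and Alas2 were above the filter on no array, and none was at exactly 0. Cd4, Foxp3 and Ncr1 lay near the filter level of 1.54 (log2), at 0.98 to 1.74. Of the red cell and stroma markers, Pecam1 was highest, at 3.44 to 4.08 in memory-derived and 2.94 to 3.10 in naive-derived unstimulated cells. In unstimulated cells Cd79b was lower and Pax5 higher in naive-derived cells. Small differences between such sums can be background. The part of these values in the results that follow was not tested.

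Final stimulation was accompanied by lower mitosis gene levels in memory-derived cells. With limma over all 11 arrays, 45 of the 54 genes fell and 0 rose at an adjusted p below 0.05, where 17.3% of all genes tested fell and 14.3% rose. The fitted difference was below 0 for all 54 genes (49.8% of all genes), with a median of -1.04 on the log2 scale beside 0.00 for all genes. Without array 3, 40 genes fell (13.1% of all genes) with a median of -0.84. With experiment as a replicate block, 43 fell (16.7% of all genes). The 6 arrays did not overlap, stimulated below unstimulated, for 48 genes, with or without array 3 (24.7% and 27.2% of all genes). A lower level in a culture can mean fewer cells near division or less RNA per dividing cell, and these cannot be told apart in bulk RNA. The actin 3' minus 5' values and the summed CD8 T cell and dendritic cell markers given above also did not overlap between these groups. The difference was also found within experiments: 53 of 54 genes were lower in experiment 1 (median -0.87), 51 in experiment 2 (median -0.74) and 54 in experiment 3 (median -1.51), against medians of all genes from -0.03 to 0.03.

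**Figure D2:**
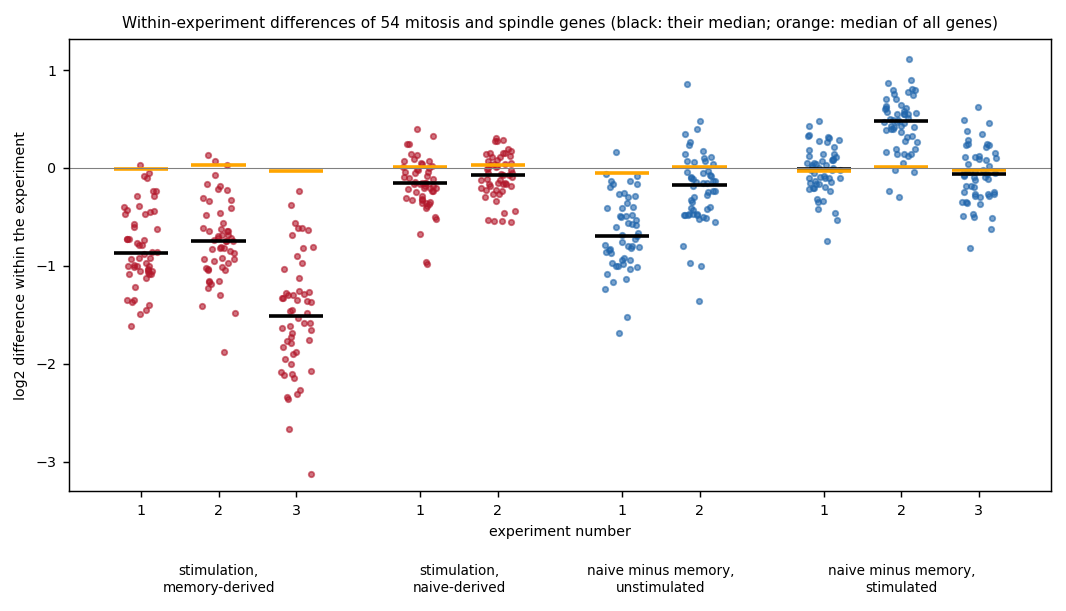
Each point is 1 of 54 genes and gives its log2 difference between 2 arrays of the same experiment (x axis: experiment number, in 4 comparisons). Black bars are medians of the list and orange bars medians of all genes; the list's median is -0.87, -0.74 and -1.51 for stimulation of memory-derived cells and -0.16 and -0.07 for stimulation of naive-derived cells.

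Among the cyclin-dependent kinase, its cyclins and its activating phosphatases, 5 of 6 genes fell on stimulation of memory-derived cells (4 without array 3 and 4 with the block). Ccnb2, a B-type cyclin, was at 6.99, 6.62 and 7.64 in unstimulated and 5.62, 5.44 and 5.54 in stimulated memory-derived cells, a difference of -1.55 (SE 0.25, adjusted p = 0.00114). Ccna2, the cyclin of S phase and early mitosis, fell by 1.16 (SE 0.20, adjusted p = 0.00189), and Cdc25b, a phosphatase that activates Cdk1, fell by 1.35 (SE 0.25, adjusted p = 0.00245). Both kept every stimulated array below every unstimulated array. Cdk1 itself, the kinase that drives entry into mitosis, was at 7.06, 6.88 and 7.08 against 6.63, 6.48 and 6.40. That is a smaller difference of -0.51 (SE 0.17), and its call was marginal: the adjusted p was 0.0479, 0.123 without array 3 and 0.0603 with the block, and 9 of 11 fits that left out 1 array lost it. Cdc25c, the related phosphatase, did not pass (-0.66, SE 0.27, adjusted p = 0.0857).

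Of the mitotic kinases, 3 of 5 fell (3 without array 3 and 3 with the block). Plk1, the polo kinase of centrosomes and kinetochores, was at 5.47, 5.30 and 6.04 in unstimulated and 4.75, 4.65 and 4.41 in stimulated memory-derived cells, and fell by 1.00 (SE 0.22, adjusted p = 0.00555). Nek2, a centrosome kinase, fell by 1.09 (SE 0.24, adjusted p = 0.00539) and Melk, a kinase most abundant in dividing cells, by 1.01 (SE 0.18, adjusted p = 0.00175). Aurka, the spindle pole kinase, was an exception: its arrays overlapped at 5.61, 5.18 and 5.75 against 5.63, 5.31 and 5.19, and it did not pass (-0.14, SE 0.21, adjusted p = 0.672). Plk4, the kinase of centriole duplication, did not pass either (-0.30, SE 0.16, adjusted p = 0.187). Aurka's level was the least moved of the 54 in this comparison.

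Of the spindle checkpoint, 4 of 5 genes fell (4 without array 3 and 4 with the block). Mad2l1, which blocks the anaphase activator Cdc20, stood at 7.20, 6.84 and 7.58 without and 6.20, 5.97 and 6.0 with stimulation, and fell by 1.15 (SE 0.19, adjusted p = 0.00141). Bub1b, its partner in the inhibitory complex, stood at 4.77, 4.62 and 5.21 against 3.98, 3.90 and 3.85, and fell by 0.96 (SE 0.20, adjusted p = 0.005). The groups of both genes were separate. Bub3, the subunit that anchors this complex at kinetochores, did not pass (-0.29, SE 0.14, adjusted p = 0.148), and the 4 other Bub3 probe sets above the filter lay at 0.09 to 0.34.

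All 5 genes grouped with the chromosomal passenger complex, which corrects faulty attachments and guides cell division, fell in memory-derived cells (4 without array 3 and 5 with the block). Birc5, which encodes survivin, was at 7.36, 7.10 and 8.10 in unstimulated cells and at 5.91, 5.61 and 5.74 in stimulated cells. Its difference of -1.76 (SE 0.27, adjusted p = 0.000874) was among the largest, and it was -1.47 without array 3. Incenp, the scaffold of the complex, fell by 1.20 (SE 0.24, adjusted p = 0.00381). Aurkb, its kinase, was at 5.26, 5.06 and 6.01 against 4.66, 4.38 and 4.52 and fell by 0.92 (SE 0.25, adjusted p = 0.0158). Without array 3 the difference of Aurkb was -0.64, at an adjusted p of 0.0499. Cdca2 lost its call without array 3 (adjusted p = 0.0332 with and 0.074 without).

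At the centromere and kinetochore 8 of 9 genes fell (7 without array 3 and 8 with the block). Ndc80, which grips microtubule ends, was at 4.17, 3.67 and 4.80 in unstimulated and 3.11, 2.65 and 2.66 in stimulated memory-derived cells, and fell by 1.41 (SE 0.32, adjusted p = 0.00733). Nuf2 and Spc25, other subunits of the Ndc80 complex, both fell by 1.07. Cenpf, a kinetochore protein made late in the cycle, fell by 1.50 (SE 0.30, adjusted p = 0.00382), with the highest value, 5.90, on array 3 and 4.88 and 4.37 on arrays 1 and 2. Without array 3 its difference was -1.08. Cenpa, the histone that marks centromeres, was at 7.52, 7.19 and 7.53 against 6.66, 6.46 and 6.40 and fell by 0.91 (SE 0.18, adjusted p = 0.00323). Spc24 did not pass (adjusted p = 0.0536), and Cenph passed only with array 3 (adjusted p = 0.0242 with and 0.0757 without).

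Of the kinesins, the motors that build and slide spindle microtubules, 7 of 8 fell (7 without array 3 and 7 with the block). Kif22, a chromosome arm motor, was at 6.69, 6.43 and 7.98 in unstimulated and 5.34, 5.39 and 4.85 in stimulated memory-derived cells. Its difference was -1.84 (SE 0.39, adjusted p = 0.00505) and moved to -1.36 without array 3. Kif23, the motor of the central spindle, fell by 1.56 (SE 0.26, adjusted p = 0.0013). Kif11, which pushes the spindle poles apart, was at 5.43, 5.31 and 6.12 against 4.31, 4.14 and 4.22 and fell by 1.40 (SE 0.22, adjusted p = 0.00106). Kif18a, which limits microtubule length, did not pass (-0.34, SE 0.21, adjusted p = 0.254).

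Spindle assembly and cytokinesis held the largest difference of the list. Nusap1, which bundles spindle microtubules, was at 6.75, 6.43 and 7.72 in unstimulated and 5.13, 4.56 and 5.06 in stimulated memory-derived cells. It fell by 2.05 (SE 0.31, adjusted p = 0.000851), and by 1.68 without array 3. Racgap1, a regulator of the cleavage furrow, fell by 1.39 (SE 0.21, adjusted p = 0.000748) and Tpx2, which nucleates spindle microtubules, by 1.40 (SE 0.25, adjusted p = 0.00179). Prc1, the crosslinker of the central spindle, was at 5.21, 5.16 and 5.80 against 4.25, 4.01 and 4.03 and fell by 1.30 (SE 0.23, adjusted p = 0.00174). Of the 7 genes in this group, Anln, a cleavage furrow scaffold, was the only one that did not pass (-0.49, SE 0.20, adjusted p = 0.0839).

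Of the genes of anaphase entry and cohesion, 5 of 6 fell with all arrays, 3 without array 3 and 4 with the block. Cdca3, a trigger of mitotic entry, stood at 6.34, 6.15 and 7.06 against 4.85, 4.73 and 4.75 and fell by 1.74 (SE 0.24, adjusted p = 0.000514). Pttg1, the securin that restrains separase until anaphase, was at 7.61, 7.55 and 7.79 against 6.89, 6.73 and 6.53 and fell by 0.94 (SE 0.15, adjusted p = 0.000999). Cdc20, which activates the anaphase promoting complex, was at 7.73, 7.51 and 8.29 against 7.27, 7.04 and 6.99. Its difference of -0.74 (SE 0.21, adjusted p = 0.0178) became -0.52 at an adjusted p of 0.0563 without array 3. Espl1, which encodes separase, had a marginal call (-0.56, SE 0.19, adjusted p = 0.0472) that was lost without array 3 (adjusted p = 0.154) and with the block (0.0588). Cdca5, which protects cohesion before mitosis, did not pass (-0.41, SE 0.24, adjusted p = 0.222).

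Top2a and Mki67, often read as marks of dividing cells, both fell. Top2a, which untangles chromosomes, was at 7.61, 7.70 and 8.47 in unstimulated and 6.52, 6.40 and 6.71 in stimulated memory-derived cells and fell by 1.38 (SE 0.21, adjusted p = 0.000971). Mki67, the Ki-67 proliferation antigen, was at 7.06, 6.77 and 8.06 against 5.99, 5.61 and 5.97 and fell by 1.44 (SE 0.28, adjusted p = 0.00321), or by 1.05 without array 3. Foxm1, which activates many of the other genes, did not pass (-0.26, SE 0.17, adjusted p = 0.296), with overlapping values of 3.18, 2.88 and 3.38 against 2.60, 2.91 and 3.15. The other Foxm1 probe sets above the filter gave differences of -0.98 and -0.44, so its probe sets shared a direction but differed in size. Over the list, 62 other probe sets passed the filter, and 54 of them had a difference below 0 in this comparison (median -0.45). The 8 at or above 0 were the 4 of Bub3 and 1 each of Cenpa (0.54), Cdca3 (0.18), Plk4 (0.16) and Bub1b (0.14). Aurkb, Incenp, Kif2c, Kif22 and Cdc20 were represented by probe sets of the x_at type, whose probes can also match other transcripts.

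**Figure D3:**
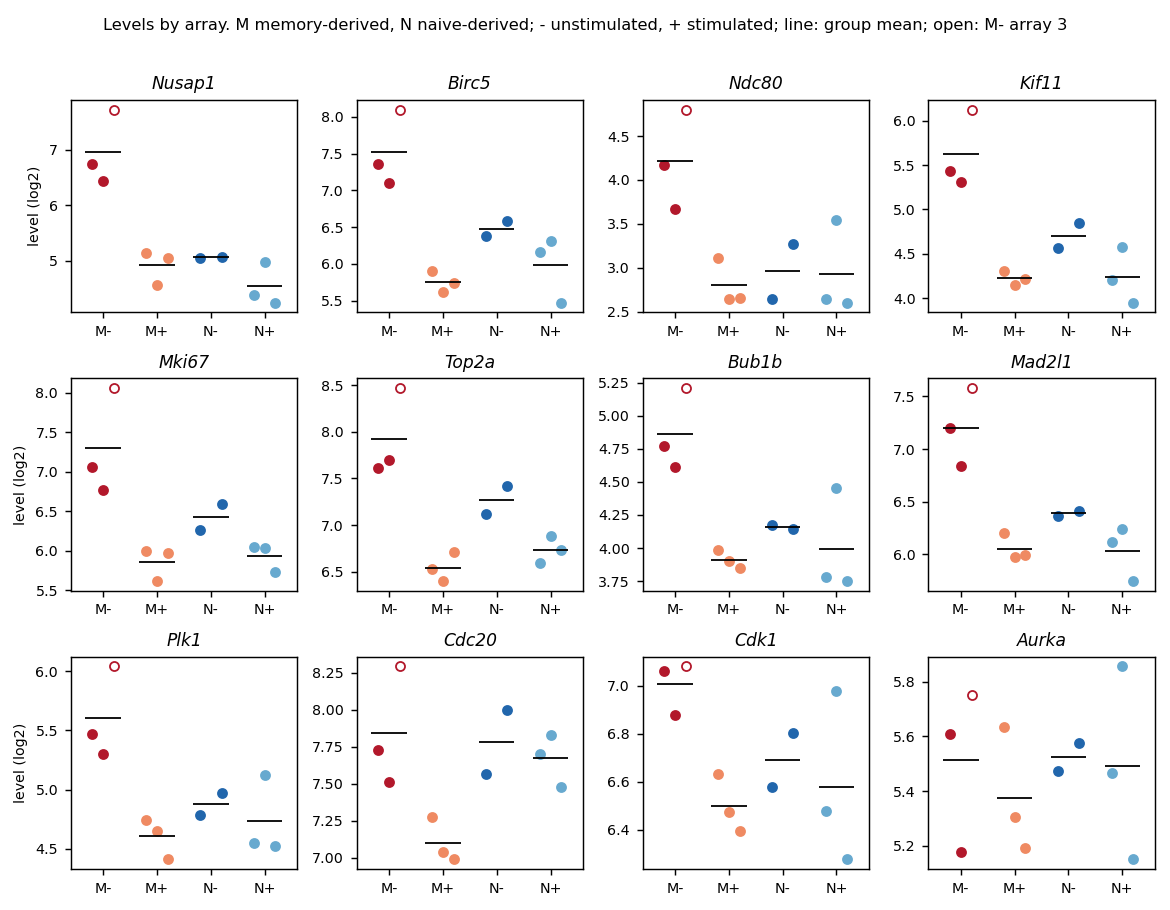
Log2 level of 12 genes on each array (points), with the group mean as a line; the groups are memory-derived (M) and naive-derived (N), unstimulated (-) and stimulated (+). Memory-derived unstimulated array 3 is drawn open. Nusap1 runs from 7.72 on that array to 4.24, while the Aurka groups overlap.

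The origin comparison asked whether unstimulated effectors from naive and memory cells differ. Of the 54 genes, 21 were lower and 0 higher in naive-derived than in memory-derived unstimulated cells at an adjusted p below 0.05, where 14.9% of all genes were lower and 10.9% higher. The difference was below 0 for 52 genes (50.8% of all genes), with a median of -0.67 beside -0.01 for all genes. Without array 3 of the memory-derived unstimulated cells, 13 were lower (11.9% of all genes) and the median was -0.44. With the replicate block 12 were lower (12.6% of all genes). The count therefore depends on which arrays enter. Without naive-derived unstimulated array 1 it was 3 (8.34% of all genes), and without array 2 of that group it was 8 (7.69%). Without memory-derived unstimulated array 2 it was 34 (16.1%). Every naive-derived array lay below every memory-derived array for 40 genes, with or without array 3 (29% and 32.5% of all genes). Within experiments the median difference was -0.69 in experiment 1 (53 of 54 lower) and -0.17 in experiment 2 (40 lower). This comparison uses the same memory-derived unstimulated arrays as the one above, so the 2 are not independent. The actin values and the summed markers of dendritic cells, of B cells, of red cells and stroma, and of CD4, regulatory, NK and gamma-delta T cells also did not overlap between these groups. Many markers in these sums lay near the filter, as given above.

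In spindle assembly and cytokinesis 5 of 7 genes passed by origin (3 without array 3 and 3 with the block). Nusap1, which had the largest origin difference of the 54 genes, stood at 5.05 and 5.07 in naive-derived and at 6.75, 6.43 and 7.72 in memory-derived unstimulated cells, and was lower by a difference of -1.90 (SE 0.35, adjusted p = 0.00307). It passed in each fit that left out 1 array, with a difference of -1.53 without array 3. Racgap1 stood at 4.84 and 4.79 against 5.85, 5.79 and 6.52, with a difference of -1.24 (SE 0.23, adjusted p = 0.00331). Of other roles, Cdca3 stood at 5.10 and 5.17 against 6.34, 6.15 and 7.06, with a difference of -1.38 (SE 0.26, adjusted p = 0.00402). Nusap1, Racgap1 and Cdca3 passed with and without array 3 and with the block. Cdc25b, at 3.46 and 3.48 against 4.59, 4.28 and 5.27, did so too (-1.25, SE 0.28, adjusted p = 0.00833).

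Other calls by origin were less firm. Ndc80, at 2.65 and 3.27 against 4.17, 3.67 and 4.80, had a difference of -1.25 (SE 0.36, adjusted p = 0.0264), which lost its call without array 3 (0.0842) and with the block (0.0621). Birc5, at 6.38 and 6.58 against 7.36, 7.10 and 8.10, differed by -1.04 (SE 0.30, adjusted p = 0.0268), again lost without array 3 (0.0703) and with the block (0.0634). The motor Kif11 differed by -0.92 (SE 0.25, adjusted p = 0.0196), kept its call without array 3 (0.0415) and lost it with the block (0.0509). For the checkpoint, Mad2l1 differed by -0.81 (SE 0.21, adjusted p = 0.018) and kept its call without array 3 (0.0449) and with the block (0.0428), whereas Bub1b (-0.71, SE 0.23, adjusted p = 0.0415) did not (0.122 and 0.084). Securin, Pttg1, differed by -0.65 (SE 0.16, adjusted p = 0.014) and kept its call in both. Plk1 (-0.73, SE 0.24, adjusted p = 0.0489) lost it in both (0.135 and 0.094). The 10 other genes that passed had differences of -1.13 (Kif23) to -0.74 (Cenpa). Of them Kif23, Tpx2, Incenp, Spc25 and Melk kept their calls in both, Cenpa lost it without array 3 (adjusted p = 0.0554), Cenpk with the block (0.0678), and Ccnb2, Hmmr and Ect2 in both.

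The remaining key genes did not pass by origin. Mki67 (-0.87, SE 0.31, adjusted p = 0.0638), Prc1 (-0.70, SE 0.25, 0.062), Top2a (-0.66, SE 0.24, 0.0674) and Aurkb (-0.68, SE 0.28, 0.0979) lay below 0 with adjusted p values short of the threshold. Cdk1 (-0.32, SE 0.20, adjusted p = 0.274), Foxm1 (-0.39, SE 0.19, 0.175), Espl1 (-0.11, SE 0.22, 0.75), Cdc20 (-0.06, SE 0.23, 0.879) and Aurka (0.01, SE 0.23, 0.978) were closer to 0. The values of Cdc20 by array, 7.57 and 8.0 in naive-derived and 7.73, 7.51 and 8.29 in memory-derived cells, overlapped. Across roles the counts that passed were 2 of 6 for the cyclin group, 2 of 5 mitotic kinases and 2 of 5 checkpoint genes. They were 2 of 5 genes grouped with the passenger complex, 4 of 9 kinetochore genes and 2 of 8 kinesins. The last were 2 of 6 anaphase genes and 0 of 3 in the group of Top2a, Mki67 and Foxm1.

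**Figure D4:**
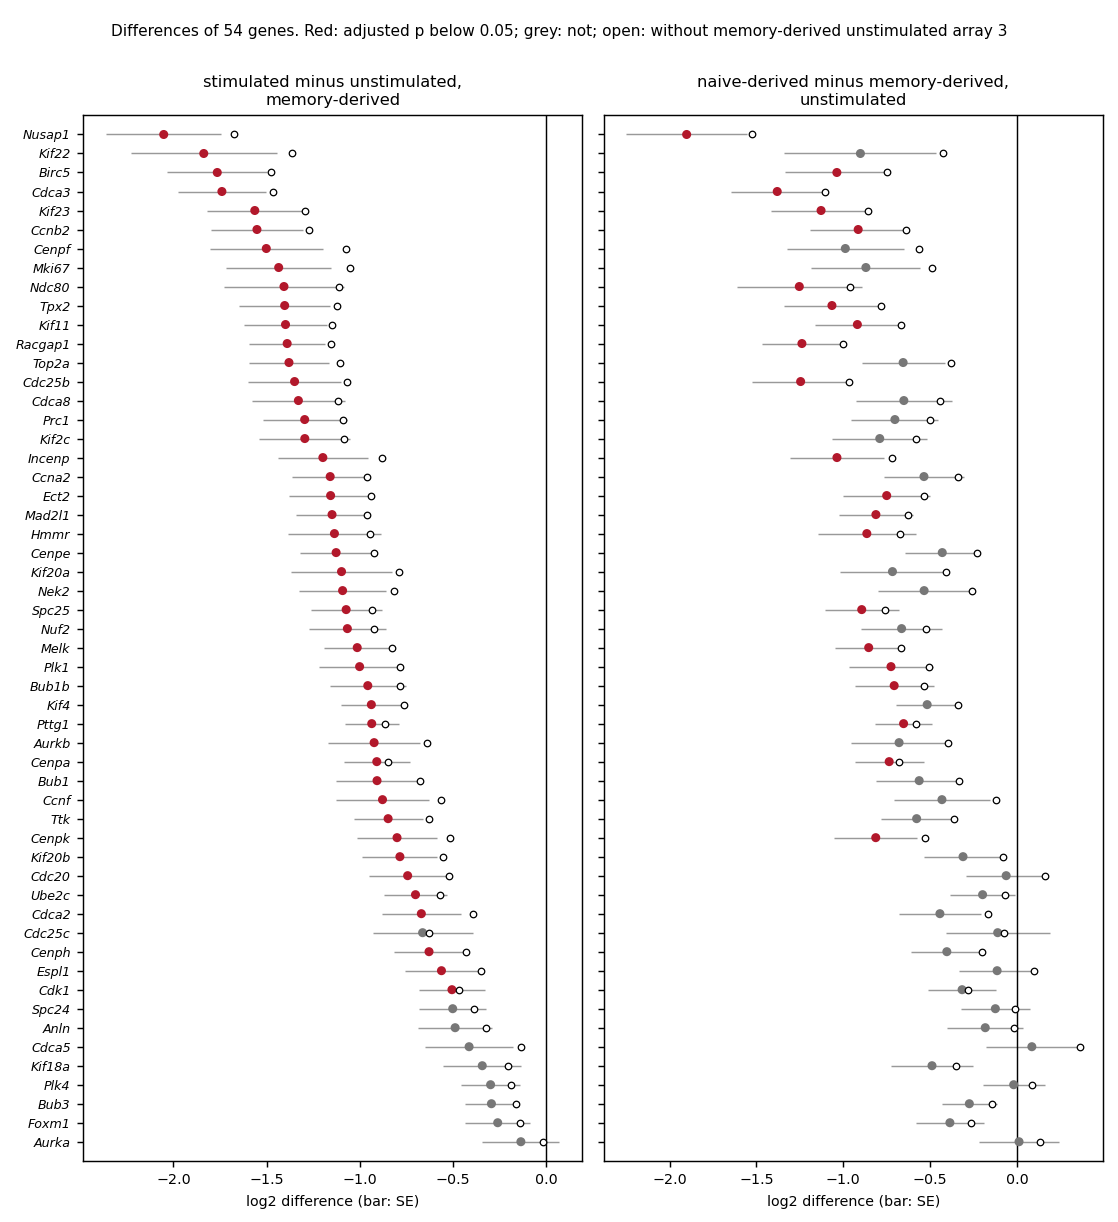
Fitted log2 difference of each of 54 genes (points, with SE bars) for stimulation of memory-derived cells (left) and for naive-derived minus memory-derived unstimulated cells (right); red points passed at an adjusted p below 0.05, grey did not, and open circles leave out memory-derived unstimulated array 3. All 54 genes lie below 0 on the left, 45 of them red, and 21 are red on the right.

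In naive-derived cells final stimulation gave no call. Of the 54 genes, 0 passed in either direction with limma, and in all genes 0.0135% fell and 0% rose. The median difference was -0.26, with 49 genes below 0 (48.4% of all genes). That median moved with single arrays: it was -0.09 without naive-derived stimulated array 3, -0.15 without naive-derived unstimulated array 2 and -0.39 without naive-derived stimulated array 2. The 5 arrays did not overlap, stimulated below unstimulated, for 13 genes (12.8% of all genes). Kif4, a chromosome arm motor, had the lowest difference: it was at 2.99, 3.27 and 3.18 in stimulated and 3.97 and 3.73 in unstimulated cells, a difference of -0.70 (SE 0.18, adjusted p = 0.298). Top2a was at 6.60, 6.89 and 6.73 against 7.12 and 7.42 (-0.53, SE 0.24, adjusted p = 0.588). Among the other key genes, Nusap1 was at -0.53 (SE 0.35), Birc5 at -0.49 (SE 0.30), Mki67 at -0.49 (SE 0.31), Kif11 at -0.46 (SE 0.25), Cdk1 at -0.11 (SE 0.20) and Aurka at -0.03 (SE 0.23). Only 2 unstimulated arrays enter this comparison, and a missed threshold does not show that nothing changed. The actin values and the summed CD8 T cell markers also did not overlap between these groups. Neither did the sums of B cells, of red cells and stroma, and of CD4, regulatory, NK and gamma-delta T cells.

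Between origins after stimulation, the genes lay close together. In this comparison, 0 of 54 genes passed with limma, where 2.01% of all genes were lower and 1.69% higher. Over all genes that is 298 lower and 250 higher, or 244 and 125 when arrays were scaled on their hybridization controls. The median difference, naive-derived minus memory-derived, was 0.12, with 11 genes below 0 (51.9% of all genes) and 43 above. Its direction turned with 1 array: it was -0.02 without naive-derived stimulated array 2 and 0.24 without array 3 of that group. Cdca5 was at 6.39, 6.57 and 6.34 in naive-derived and 5.92, 5.71 and 5.72 in memory-derived stimulated cells (0.65, SE 0.24, adjusted p = 0.19). Cdc20 was at 7.70, 7.83 and 7.48 against 7.27, 7.04 and 6.99 (0.57, SE 0.20, adjusted p = 0.185). Neither passed, although their arrays did not overlap. Such separation upward held for 5 genes (11.4% of all genes) and downward for 1, Kif4 (14.3% of all genes). Within experiments the list's median was -0.01, 0.48 and -0.07, and experiment 2 alone had most genes (50 of 54) above 0. The actin values and the summed CD8 T cell markers did not overlap between these groups. Neither did the sums of dendritic cells, of macrophages, and of red cells and stroma.

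An interaction term asked if the 2 origins responded unequally to stimulation. The response of naive-derived cells minus that of memory-derived cells was above 0 for all 54 genes, with a median of 0.75 (0.02 over all genes). Without memory-derived unstimulated array 3 the median was 0.57 (0.02 over all genes). At an adjusted p below 0.05, 1 gene, the kinase Melk, passed, where 1.62% of all genes were higher and 1.09% lower. Over all genes that split was 239 higher and 162 lower, or 68 and 78 with scaling on hybridization controls. The list's count of 1 was near the share of all genes. At an unadjusted p below 0.05, 29 genes of the list were higher, and 22 without array 3. The share of all genes at that unadjusted threshold was not counted, so these 2 counts have no baseline here. Melk was at 4.78, 4.56 and 5.23 in unstimulated and 4.02, 3.81 and 3.69 in stimulated memory-derived cells, and at 3.93 and 4.08 against 4.33, 4.27 and 4.04 in naive-derived cells. Its interaction was 1.22 (SE 0.26, adjusted p = 0.0423, and 0.0369 without array 3, where 1.77% of all genes were higher), and it did not pass with the block (adjusted p = 0.0905, 0 of 54 genes against 0.101% of all genes). Nusap1 had the highest estimate, 1.52 (SE 0.46, adjusted p = 0.0917), and did not pass. For most of the list a different response by origin was therefore not resolved with these arrays.

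Genes next to the list in the cycle were described by lists of their own, and their counts stand beside the shares of all genes given above. Those were 17.3% lower and 14.3% higher on stimulation of memory-derived cells (13.1% and 11.1% without array 3), and 14.9% lower and 10.9% higher by origin in unstimulated cells (11.9% and 9% without array 3). Of 65 other mitosis genes, 31 fell and 1 rose on stimulation of memory-derived cells (21 and 0 without array 3). The largest differences were of Depdc1b (-2.21, SE 0.31, adjusted p = 0.000613) and Dlgap5, a spindle protein (-1.44, SE 0.24, adjusted p = 0.0015). Depdc1b was at 3.42, 3.25 and 4.33 in unstimulated and 1.22, 1.25 and 1.88 in stimulated memory-derived cells. The stimulated values lay around the filter level of 1.54, so the size of its difference is uncertain. By origin 14 were lower and 2 higher in naive-derived unstimulated cells (9 and 1 without array 3). Without array 3 the lower count was close to the share of all genes, and the higher count was below it. Of 29 genes of DNA replication and S phase, 20 fell and 0 rose on stimulation (14 and 0 without array 3), with Tk1, thymidine kinase, at -1.88 (SE 0.27, adjusted p = 0.000622) and Mcm7, part of the helicase that opens DNA, at -1.58 (SE 0.23, adjusted p = 0.000787). By origin 8 were lower and 1 higher (7 and 1 without array 3). The shares that fell, in the chart of gene lists, lay between those of the mitosis and spindle genes and of all genes.

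A pair of further lists holds the machinery that destroys mitotic proteins and that holds sister chromatids together. Of 14 anaphase promoting complex genes, 7 fell and 0 rose on stimulation of memory-derived cells (6 and 0 without array 3), and 5 were lower and 0 higher by origin (5 and 1 without array 3). Anapc2, a catalytic subunit, was at -0.95 (SE 0.17, adjusted p = 0.00223) and Fzr1, the activator used after mitosis, at -0.88 (SE 0.16, adjusted p = 0.00197). Of 10 cohesin genes, 4 fell and 1 rose (2 and 1 without array 3), with Rad21, the ring subunit cleaved by separase, at -0.96 (SE 0.17, adjusted p = 0.00222). Nipbl, the cohesin loader, was at -0.72 (SE 0.19, adjusted p = 0.013, and 0.0506 without array 3). Without array 3 the cohesin counts were close to the shares of all genes.

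Regulators of these promoters and brakes on the cycle were described in the same way. Of 15 promoter regulators, 4 fell and 2 rose on stimulation of memory-derived cells (4 and 1 without array 3). By origin 4 were lower and 2 higher (3 and 3 without array 3). With all arrays these counts were near the shares of all genes. Rbl2, a pocket protein of the repressor complex, was at 5.34, 5.27 and 6.37 in unstimulated and 3.82, 3.96 and 4.19 in stimulated memory-derived cells. In naive-derived cells it was at 3.78 and 3.65 without and 3.06, 3.17 and 2.58 with stimulation. It fell on stimulation of memory-derived cells by 1.67 (SE 0.27, adjusted p = 0.00123), and Rbl1, its relative, fell by 1.50 (SE 0.27, adjusted p = 0.00201). Both were thus highest in the group where the mitosis genes were highest. Of 17 brakes on the cycle, 6 fell and 4 rose, with or without array 3. Plk2, a stress-responsive polo kinase, was at 3.14, 3.79 and 1.69 against 5.99, 6.50 and 6.40 and rose by 3.43 (SE 0.41, adjusted p = 0.000268). Cdkn2d, an inhibitor of the G1 kinases Cdk4 and Cdk6, was at 5.97, 5.54 and 6.60 against 3.91, 3.52 and 3.78 and fell by 2.30 (SE 0.29, adjusted p = 0.00032). Of 15 cyclins and E2F genes of G1 and S entry, 4 fell and 4 rose (2 and 3 without array 3). Ccnd3 was at -2.12 (SE 0.19, adjusted p = 5.81e-05) and Ccnd2 at 1.60 (SE 0.28, adjusted p = 0.00189), both D-type cyclins of early G1.

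**Figure D5:**
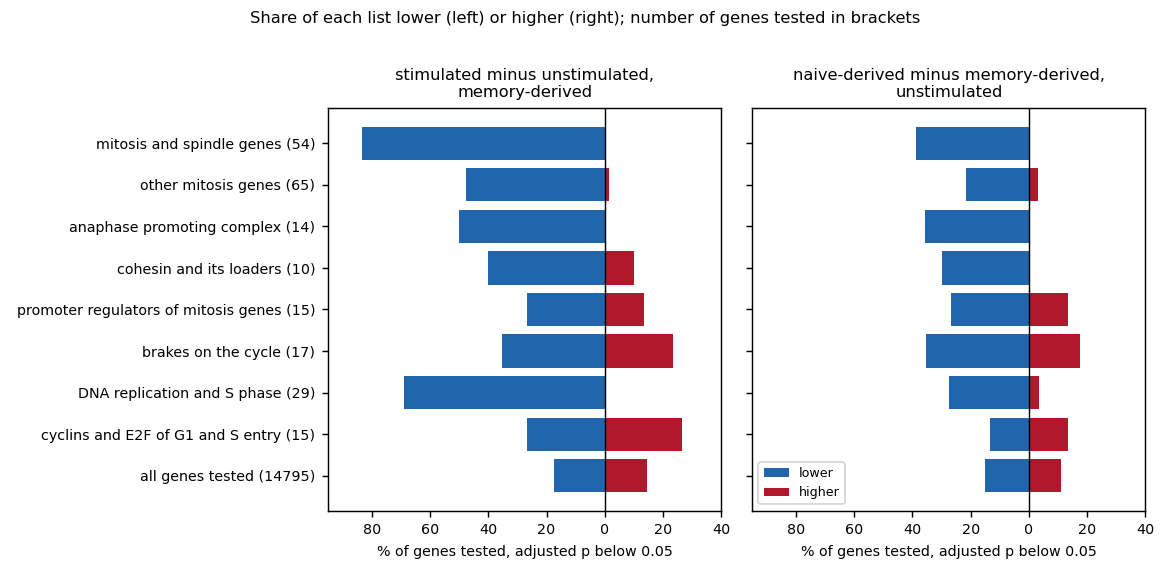
Bars give the percent of genes tested in each list that were lower (left, blue) or higher (right, red) at an adjusted p below 0.05, for stimulation of memory-derived cells (left panel) and for naive-derived minus memory-derived unstimulated cells (right panel). Numbers of genes tested are in brackets: 45 of 54 mitosis and spindle genes, 20 of 29 DNA replication genes and 17.3% of all genes fell on stimulation.

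The calls can also be set beside the promoter letters. Of the 45 genes with a promoter window, 28 held CCAAT with TTTGAA or TTCGAA, and 26 of these fell on stimulation of memory-derived cells (median -1.10). Of the 17 without that combination, 13 fell (median -1.01). By origin, 12 of the 28 and 7 of the 17 were lower. Nusap1 and Birc5, which fell by 2.05 and 1.76, hold no such combination in the windows searched, and Aurka, at -0.14, does.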

How the data were processed

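Total RNA of 11 samples was measured on Affymetrix arrays, 1 array a sample. The authors deposited log10 values that were already quantile normalized: every array held the same sorted values, from 0 to 4.56. The log base was inferred here from the values, since the sources used here give no base or summarization method, and Affymetrix Expression Console is the tool named by the submitters' processing notes. The deposited values were multiplied by 3.32 to give log2 values. Quantile normalization fixes each array's overall distribution, so differences are relative to the other genes, and precision rests on how many arrays there are.

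The 64 control probe sets were set aside. Of the others, 34945 carry a single symbol and could be named, 932 carry more than 1, and 9160 are unnamed in the annotation used. Each of 18193 genes was represented by its probe set with the highest mean. The 14795 genes above the array's 40th percentile (1.54, log2) on at least 2 arrays were tested in R 4.3.3 with limma 3.58.1 (functions lmFit and eBayes, 4 groups, no block, 7 residual and 3.86 prior degrees of freedom). Two-sided p values were adjusted over all 14795 genes (Benjamini-Hochberg), and a gene passed below 0.05. SE is the standard error of the fitted difference and SD the standard deviation between arrays. The scripts were tested on simulated data. Figures used matplotlib 3.10.9 in Python 3.11.15.

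The labels give the experiment number, so arrays with the same number are taken as pairs. After subtracting group means, arrays of 1 experiment correlated at -0.0716 to 0.112 (median 0.0341, 15 pairs) and arrays of different experiments at -0.131 to 0.112 (30 pairs). Arrays of 1 experiment that also shared origin correlated at 0.047 to 0.112. With only 2 naive-derived unstimulated arrays, subtracting their mean makes their values mirror each other. An alternative model held this replicate block, and its values stand beside the results it changes.

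The members, the gene lists and the alternatives were chosen with earlier results of these data known. Per comparison, values are given for the 5 members with the largest changes in each direction that passed, for members against the majority, and for a fixed set of key genes whatever their result; of each other list, the 2 largest changes that passed on stimulation of memory-derived cells are named. Other members named were chosen after their values were seen. Promoter sequences are RefSeq's, of GRCm38.p6.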

Additional observations from a re-analysis of the deposited data

Results flagged for a closer look

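Melk, a kinase of dividing cells, was flagged because its interaction, the test of a different response by origin, passed. For a list of 54 genes, 1 call is near the 1.62% of all genes that were higher. The interaction was 1.22 (SE 0.26, adjusted p = 0.0423 with limma): Melk fell by 1.01 in memory-derived cells, while the difference in naive-derived cells was 0.21 (SE 0.20, adjusted p = 0.844). Unstimulated values were above stimulated values in 3 of 3 memory-derived experiments, as in most of the list (53, 51 and 54 of 54 genes). The adjusted p of the interaction ran from 0.0124 to 0.152 over the alternatives, was 0.0905 with the replicate block, and 9 of 11 fits without 1 array lost the call, all but those without memory-derived unstimulated array 2 or 3. No search for single outlying arrays within a group was made, since groups hold 2 or 3 arrays. Estimated array weights were 2.53, 0.63 and 0.32 for memory-derived unstimulated arrays 1, 2 and 3.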

How the results depend on the processing

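The count of genes that fell on stimulation of memory-derived cells was 32 to 47 of 54 over the alternatives run. It was 32 with experiments 1 and 2 only (10.3% of all genes) and 47 with array weights (20.8%). When 1 array was left out it was 38 (12.9% of all genes) to 46 (17.6%). The origin difference in unstimulated cells was less stable. With the replicate block 12 genes were lower (12.6% of all genes), and 10 when only those 2 groups were fitted (9.98%). When 1 array was left out the count was 3 to 34. It was 3 without naive-derived unstimulated array 1 (8.34% of all genes) and 34 without memory-derived unstimulated array 2 (16.1%). The interaction, 1 gene higher (1.62% of all genes), gave 0 with the replicate block (0.101% of all genes) and with no filter (0.583%). It also gave 0 with scaling on hybridization controls (0.46%) and with experiments 1 and 2 only (0.21%). It gave 4 with a stricter filter (4.01% of all genes), 4 with low values set to the 40th percentile (3.79%) and 7 with an intensity trend (4.29%). With array weights it gave 10 (5.65%), and with a random block by origin and experiment, chosen after seeing the data, 5 (3.6%). When 1 array was left out it gave 0 to 15. The 15 were without memory-derived unstimulated array 2 (5.46%). It gave 1 without array 3 of that group (1.77%) or naive-derived stimulated array 3 (0.919%), and 0 without any other. Scaling on hybridization controls gave, over all genes, 1806 lower and 1229 higher in place of 2556 and 2119 on stimulation of memory-derived cells, and 1598 and 809 in place of 2208 and 1611 by origin in unstimulated cells. In stimulated cells 1 gene was higher in naive-derived cells when only those 2 groups were fitted (1.45% of all genes). Where fewer arrays entered, the fit had fewer degrees of freedom; the cause of the other changes was not tested. Taking the mean of all probe sets of a gene in place of the brightest gave 41 genes lower on stimulation of memory-derived cells (17.1% of all genes). Their list's median was then -0.70. With the replicate block, the other named mitosis and spindle genes kept their side of the threshold.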
